A study of Homo sapiens with 8 samples.

Results

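The AP-1 transcription factors examined here are 10 genes, taken by gene symbol from the count tables: FOS, FOSB, FOSL1, FOSL2, JUN, JUNB, JUND, ATF3, BATF and MAFF. All 10 were among the 59050 gene symbols of the tables, and all 10 passed the filter on low counts that 16219 genes passed. Their transcripts were measured by RNA sequencing in xenograft tumours of H2122, a cell line established from a human lung cancer. The design had 4 tumours of parental cells (genotype WT) and 4 tumours of cells with a SMARCA4 knockout, and every tumour came from the vehicle arm. SMARCA4 (BRG1) is a motor subunit of SWI/SNF complexes, which move nucleosomes. The host strain, the vehicle, and whether the knockout cells were 1 clone or a pool are not given in the sources used here. Nothing in the labels says that the 4 tumours of a group came from separate animals, so p-values measure the spread between these samples.

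AP-1 is a family of dimers of bZIP proteins, which hold a basic region that contacts DNA and a leucine zipper that joins the partners. JUN proteins pair with each other or with FOS proteins, whereas FOS proteins need a JUN partner, and the dimers bind the TPA response element or the cAMP response element. FOS, FOSB, JUN, JUNB and ATF3 are immediate early genes, induced within minutes by growth factors or stress, and FOSL1 and FOSL2 follow more slowly. In several cell types AP-1 factors bind enhancers together with SWI/SNF.

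The promoters of 4 members are shown: BATF, the member with the largest difference, and FOS, ATF3 and JUND as examples that hold letters searched for. FOSB, FOSL2, JUN, JUNB and MAFF also held matches and are not shown. RefSeq on GRCh38.p14 gave promoters for 9 of the 10 members, FOSL1 being the one without an entry, with 11 start sites in all. The 250 bases before each start were searched on both strands. Each sequence is written 5′ to 3′ on the gene's strand and stops before the first exon that GENCODE 29 gives, and capitals mark the matches. BATF lies on the plus strand (chr14:75522219-75522424), as do FOS (chr14:75278578-75278773) and ATF3 (chr1:212565157-212565333), and JUND lies on the minus strand (chr19:18281623-18281872).
BATF: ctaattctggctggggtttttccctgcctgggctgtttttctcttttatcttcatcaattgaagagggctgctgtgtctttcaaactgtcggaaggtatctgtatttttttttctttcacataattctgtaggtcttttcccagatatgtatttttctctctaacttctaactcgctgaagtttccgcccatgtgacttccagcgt
FOS: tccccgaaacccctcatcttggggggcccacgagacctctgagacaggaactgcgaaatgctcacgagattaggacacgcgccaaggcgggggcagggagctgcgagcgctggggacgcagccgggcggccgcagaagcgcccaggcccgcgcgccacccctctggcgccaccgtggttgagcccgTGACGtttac
ATF3: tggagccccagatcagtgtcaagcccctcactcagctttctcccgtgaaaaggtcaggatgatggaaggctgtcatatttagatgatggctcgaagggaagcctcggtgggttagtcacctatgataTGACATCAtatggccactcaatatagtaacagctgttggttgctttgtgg
JUND: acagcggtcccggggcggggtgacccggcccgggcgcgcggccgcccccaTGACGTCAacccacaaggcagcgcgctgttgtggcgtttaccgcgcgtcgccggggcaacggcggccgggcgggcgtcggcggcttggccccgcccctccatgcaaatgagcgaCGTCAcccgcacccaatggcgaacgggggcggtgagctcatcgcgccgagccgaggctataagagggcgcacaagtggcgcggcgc

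The cAMP response element, TGACGTCA, was found in 2 of the 11 windows, once in JUND and once at the first start of MAFF, against 1.65% of 35116 promoter windows of the same length. Its core TGACG, which every full element also contains, was found in 7 of 11 windows against 21.2% of all windows. The related run TGACATCA was found in 2 windows, those of JUN and of the first start of ATF3, against 2.38%. The TPA response element, searched as TGACTCA, was in 0 of the 11 windows against 4.2%. The CArG box, the site of serum response factor, was in 0 windows against 1.16%. The BATF window held none of these motifs. A match describes letters and not a bound site. Bases outside the windows were not searched, so a count of 0 says nothing about motifs farther from a start, for FOS as for the other members.

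The targeted gene was checked first. SMARCA4 was at 220, 229, 198 and 235 CPM (a gene's counts relative to its library's total, scaled by TMM) in parental tumours 1 to 4 and at 29.6, 26.2, 22.3 and 31.1 CPM in knockout tumours 1 to 4. Every library therefore lay on the side of its label. Gene counts per library were 19785922 to 23191698. Of all tested genes, 27.0% changed at an adjusted p under 0.05 by edgeR's quasi-likelihood test, 13.0% higher and 14.1% lower in knockout tumours, and 29.3% had groups that did not overlap. Markers of tumour epithelium were abundant, at 5756 to 6929 CPM summed over 6 genes in parental and 4634 to 6237 CPM in knockout tumours. Of these genes, KRT19 (log2 fold change -1.01, edgeR adjusted p = 8.49e-05) and KRT7 (-0.71, 0.000333) were called lower. EPCAM, KRT8, KRT18 and CDH1 were not called. Of 4 lung lineage markers, NKX2-1 and SFTPC were at 0 counts in each of the 8 tumours (a 0 still allows 3 counts per library). NAPSA had 78 counts over the parental and 91 over the knockout libraries and was not called. SFTPB had 17 and 19 counts and did not pass the filter. Leukocyte markers (9 genes) summed to 67.9 and 57.5 CPM in parental tumours 2 and 3, to 12.6 and 7.36 CPM in parental tumours 1 and 4, and to 12.3 to 29.5 CPM in knockout tumours. Skeletal muscle markers reached 32.0 CPM in parental tumour 2 and 14.4 CPM in knockout tumour 4. Endothelial markers (6 genes) summed to 7.30 to 17.9 CPM in parental and 8.87 to 15.4 CPM in knockout tumours. Most of this was PECAM1, which was not called. VWF was called lower (172 parental and 32 knockout counts, log2 fold change -2.37, edgeR adjusted p = 0.00041). VWF passed the filter on low counts through its parental libraries. CDH5 (36 and 0 counts), KDR (38 and 9), CLDN5 (2 and 4) and TIE1 (15 and 30) did not pass. Whether reads of the mouse host were removed is not given in the sources used here.

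Most of the family did not pass the test. Of the 10 members, BATF fell, FOSL1 rose, and 8 were not called by edgeR's quasi-likelihood test, so 2 of 10 changed against a background of 27.0%. BATF was also the sole member whose groups did not overlap (1 of 10, against 29.3% of all genes). The members' median log2 fold change was 0.02 and their median absolute log2 fold change 0.14, against 0.00345 and 0.25 over all tested genes. The log2 fold change was above 0 for 5 members and below 0 for 5, and those of FOSB, JUN and ATF3 turned from below to above 0 with upper-quartile scaling. In bulk tumours, fewer cells that express a gene and less RNA per cell cannot be told apart.

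**Figure D1:**
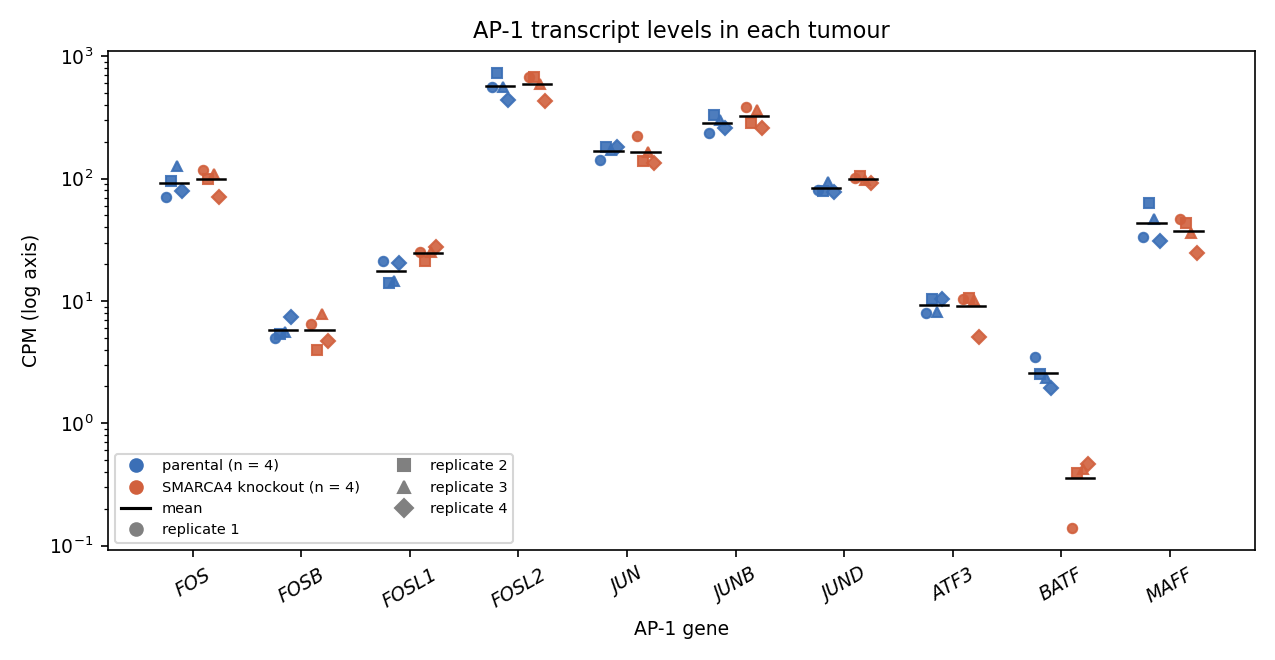
CPM on a log axis for the 10 AP-1 genes in each tumour; blue points are the 4 parental and orange points the 4 SMARCA4 knockout tumours, symbols give the replicate number and black lines the group means. BATF is the only gene whose groups are apart, at 1.96 to 3.47 and 0.140 to 0.467 CPM.

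BATF, a bZIP protein without a transactivation domain that pairs with JUN proteins and is best known from lymphocytes, had the largest difference. Parental tumours 1 to 4 held 3.47, 2.54, 2.37 and 1.96 CPM, and knockout tumours 1 to 4 held 0.140, 0.390, 0.420 and 0.467 CPM. All knockout values lay below all parental values, and knockout tumour 1 was the lowest. The counts behind these levels were 67, 52, 53 and 46 in parental and 3, 8, 9 and 10 in knockout tumours, so BATF passed the filter on low counts through its parental libraries. The log2 fold change was -2.84 (SE 0.337, 95% interval -3.58 to -2.102, edgeR adjusted p = 0.000105), a level 7.17-fold lower in knockout tumours. Leaving out any 1 tumour gave -3.00 to -2.58, with BATF called in all 8 fits.

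Leukocytes are a known source of BATF transcripts, so the 9 leukocyte markers are given beside it. Parental tumour 1 had the most BATF and 12.6 CPM of leukocyte markers, whereas parental tumour 2 had the most leukocyte markers and 2.54 CPM of BATF. The T cell gene CD3E had 17, 61, 39 and 13 counts in parental and 45, 33, 37 and 17 in knockout tumours. Summed over each group, LYZ had 1851 parental and 758 knockout counts, CSF1R 249 and 88, and AIF1 85 and 16. PTPRC had 412 and 311, CD14 228 and 256, ITGAM 95 and 91, and CD68 38 and 29. Summed leukocyte markers were 36.3 ± 30.8 CPM in the parental group and 19.99 ± 7.11 CPM in the knockout group (SD, 4 tumours per group; exact two-sided permutation p = 0.40, 0.60 adjusted over 9 measures of composition). Of the 9 markers, 6 passed the filter and none was called, against 27.0% of all tested genes. The log2 fold changes were -1.48 for CSF1R, -1.27 for LYZ, -0.41 for PTPRC, -0.04 for ITGAM, 0.02 for CD3E and 0.18 for CD14. Their parental SD was 70.4% to 103% of the mean, so differences of this size could go uncalled. Without parental tumours 2 and 3, an analysis chosen after the data were seen, the BATF log2 fold change was -2.91 (edgeR adjusted p = 0.000447). The part of leukocytes in the BATF difference was not tested.

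BATF and FOS lie close together on chromosome 14, with the related gene JDP2 between them. BATF spans 75522425 to 75547015, FOS 75278774 to 75282230 and JDP2 75427716 to 75474111, all on GRCh38 as placed by GENCODE 29. JDP2, a repressor that also pairs with JUN, was at 5.28 ± 0.223 CPM in the parental and 4.28 ± 0.868 CPM in the knockout group (SD over 4 tumours per group; log2 fold change -0.31, edgeR adjusted p = 0.211). Within 300000 bases of FOS or BATF, 12 genes were tested and 3 were called, near the background of 27.0%, in a set examined after the values were seen. BATF fell, while its downstream neighbour FLVCR2, a membrane transporter gene, had a log2 fold change of 1.70 (adjusted p = 9.87e-06) and ERG28 one of 0.46 (adjusted p = 0.00297).

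FOSL1, which encodes FRA1, a FOS-family protein that partners JUN proteins in many carcinoma cells, rose. Its levels were 21.3, 14.0, 14.5 and 20.4 CPM in parental tumours 1 to 4 and 25.1, 21.1, 25.1 and 27.7 CPM in knockout tumours 1 to 4. The groups overlapped narrowly, since knockout tumour 2 lay just under parental tumour 1. The mean was 17.5 ± 3.87 CPM in the parental and 24.7 ± 2.73 CPM in the knockout group (SD over 4 tumours per group), a log2 fold change of 0.50 (SE 0.154, 95% interval 0.16 to 0.83, edgeR adjusted p = 0.0337). The call depended on single tumours. It was lost in 5 of the 8 fits that left out 1 tumour: without parental tumour 2 (0.40, edgeR adjusted p = 0.0687) or 3 (0.41, 0.0855), and without knockout tumour 1 (0.49, 0.0746), 3 (0.49, 0.0744) or 4 (0.44, 0.0847). Parental tumours 2 and 3, with the lowest FOSL1, were those with the most leukocyte markers. Without both, the log2 fold change was 0.24 with an edgeR adjusted p of 0.185, and the part of other cells in the FOSL1 difference was not tested.

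**Figure D2:**
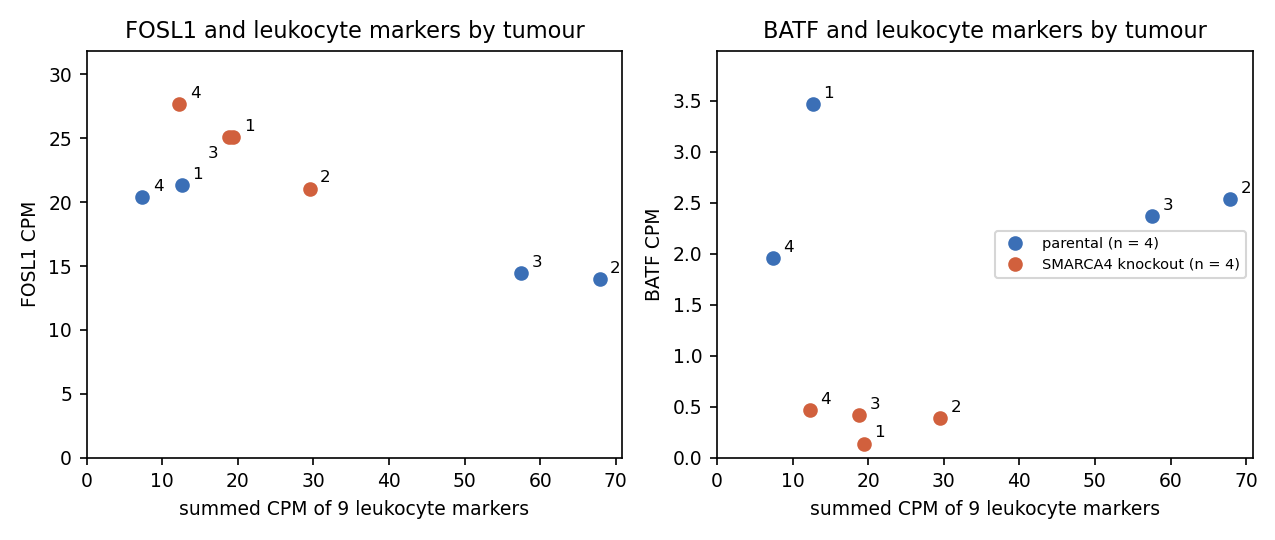
CPM of FOSL1 (left) and BATF (right) against the summed CPM of 9 leukocyte markers, 1 point per tumour with its replicate number, parental in blue and knockout in orange. The lowest FOSL1 values, 14.0 and 14.5 CPM, belong to parental tumours 2 and 3 at 67.9 and 57.5 CPM of leukocyte markers. All 4 parental BATF values lie above all knockout values. Knockout tumours span 12.3 to 29.5 CPM of leukocyte markers, and parental tumours 1 and 4 lie at 12.6 and 7.36 CPM.

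The other 3 FOS genes did not pass the test, and their groups overlapped. FOS was at 70.3, 96.3, 126 and 78.6 CPM in the parental and 118, 99.7, 108 and 71.1 CPM in the knockout group, with ranges that coincided. Its log2 fold change was 0.10 (95% interval -0.32 to 0.52, edgeR adjusted p = 0.750). FOSL2, which encodes FRA2, was at 562, 723, 561 and 437 CPM in the parental and 677, 679, 595 and 432 CPM in the knockout group (log2 fold change 0.06, interval -0.31 to 0.43, adjusted p = 0.824). Tumour 4 was the lowest of each group for FOSL2. FOSB was scarce, at 5.83 ± 1.10 CPM in the parental and 5.75 ± 1.76 CPM in the knockout group (SD over 4 tumours per group; log2 fold change -0.02, interval -0.51 to 0.47, adjusted p = 0.957).

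Among the JUN genes, JUND stood nearest to a call. JUND, the JUN gene that is expressed steadily rather than induced, was at 80.5, 79.3, 94.6 and 78.4 CPM in the parental and 102, 105, 97.7 and 91.7 CPM in the knockout group. Only parental tumour 3 reached into the knockout range. The log2 fold change was 0.25 (SE 0.0876, 95% interval 0.06 to 0.44, edgeR adjusted p = 0.0555), and it crossed the threshold with DESeq2 (0.24, adjusted p = 0.0452) and without parental tumour 3 (0.31, edgeR adjusted p = 0.0208) or knockout tumour 4 (0.29, edgeR adjusted p = 0.0419). JUNB, an induced gene often opposed to JUN in growth control, was at 234, 334, 303 and 260 CPM in the parental and 386, 285, 363 and 257 CPM in the knockout group. These groups overlapped, and the log2 fold change was 0.19 (interval -0.13 to 0.52, edgeR adjusted p = 0.377). JUN itself, the founding member, was at 168 ± 18.6 CPM in the parental and 165 ± 40.1 CPM in the knockout group (SD over 4 tumours per group; log2 fold change -0.03, interval -0.36 to 0.31, adjusted p = 0.921). The exons of JUNB share 259 bases with HOOK2 on the other strand. Strandedness of the counting is not given in the sources used here, and HOOK2 had a log2 fold change of 0.28 (adjusted p = 0.0675).

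ATF3 and MAFF complete the family. ATF3, a stress-induced repressor and activator, was at 7.92, 10.4, 8.08 and 10.3 CPM in the parental and 10.3, 10.6, 10.2 and 5.04 CPM in the knockout group. Knockout tumour 4 stood apart, and the log2 fold change of -0.03 (interval -0.51 to 0.46, edgeR adjusted p = 0.947) became 0.18 without it. MAFF, a small MAF protein that lacks a transactivation domain and pairs with FOS or CNC proteins, was at 33.1, 63.2, 46.5 and 30.7 CPM in the parental and 46.9, 43.3, 35.9 and 24.5 CPM in the knockout group. Its log2 fold change was -0.21 (interval -0.74 to 0.33, adjusted p = 0.575), and parental tumour 2 held the highest value.

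**Figure D3:**
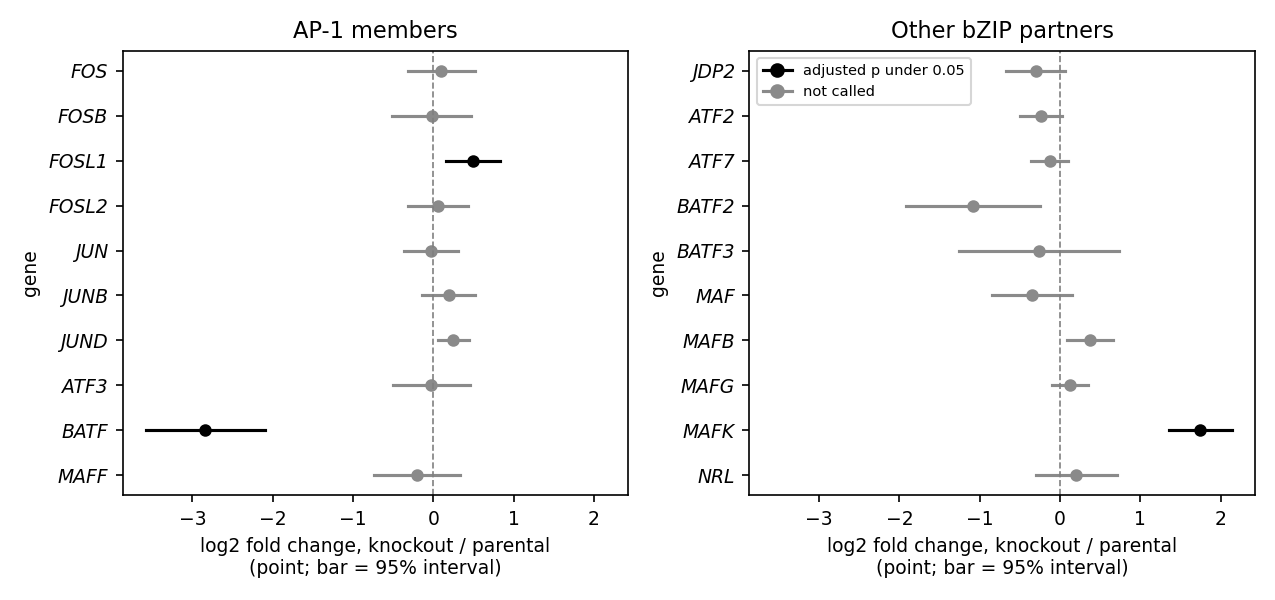
Log2 fold change of knockout over parental tumours (points) with 95% intervals (bars) for the 10 AP-1 members (left) and for the 10 tested genes of a list of other bZIP partners (right), black where the edgeR adjusted p is under 0.05. BATF at -2.84, FOSL1 at 0.50 and MAFK at 1.75 are black.

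Within a group, several members were lowest or highest in the same tumour. Knockout tumour 4 had the lowest level of its group for 7 of 10 members (FOS, FOSL2, JUN, JUNB, JUND, ATF3 and MAFF) and the highest for FOSL1 and BATF. The same library had the highest mitochondrial share of gene counts, 10.9%, and the lowest assigned share of tallied reads of its group, 79.9%. Parental tumour 2 had the highest level of its group for 5 members (FOSL2, JUN, JUNB, ATF3 and MAFF) and the lowest for FOSL1. The share of all tested genes with such extremes in these tumours was not computed, so the pattern may not be particular to AP-1. The mitochondrial share averaged 7.08% ± 1.99 over parental and 9.73% ± 0.985 over knockout tumours (SD over 4 tumours per group; exact two-sided permutation p = 0.0571, 0.386 adjusted over 9 measures). The part of RNA quality in the members' values was not tested. Without parental tumour 2 and knockout tumour 4, an analysis chosen after the data were seen, 1 member remained called, BATF.

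Levels were compared between genes per kilobase of annotated exon, since longer transcripts collect more reads. On the CPM per kb scale JUNB led, at 155 ± 24.4 in parental and 177 ± 33.9 in knockout tumours (SD over 4 tumours per group), followed by FOSL2 at 79.7 ± 16.4 and 83.3 ± 16.2. JUND (44.7 ± 4.10 and 53.1 ± 3.01) and JUN (47.6 ± 5.26 and 46.7 ± 11.3) came next, and their ranges over the 8 tumours overlapped. FOS (28.6 ± 7.59 and 30.7 ± 6.24) overlapped with JUN and lay above FOSL1 (9.30 ± 2.05 and 13.1 ± 1.45). MAFF overlapped with FOSL1, at 7.73 ± 2.65 and 6.70 ± 1.76, and lay above ATF3, at 2.27 ± 0.339 and 2.24 ± 0.659. BATF was at 2.64 ± 0.653 and 0.361 ± 0.149, and FOSB at 1.05 ± 0.198 and 1.04 ± 0.317. ATF3, BATF and FOSB overlapped with their neighbours in this order. JUNB ranked above 98.8% of 15901 tested genes with a length and FOSB above 24.5%.

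Shares of the summed family were taken on the CPM per kb scale. The 3 JUN genes gave 65.4% ± 2.45 of the summed CPM per kb in parental and 66.9% ± 2.61 in knockout tumours, the 4 FOS genes 31.3% ± 2.16 and 30.9% ± 2.29 (SD over 4 tumours per group). ATF3, BATF and MAFF together gave 3.31% ± 0.376 and 2.23% ± 0.351. The whole family summed to 335 to 433 CPM per kb in parental and 332 to 486 CPM per kb in knockout tumours, and these ranges overlapped. BATF contributed under 1% in each group, 0.708% ± 0.232 and 0.0924% ± 0.0471. These shares depend on the division by length: of the summed CPM without it, the JUN genes gave 42.1% in parental and 43.3% in knockout tumours and the FOS genes 53.7% and 53.3%. The order of JUNB and FOSL2 turned with it too, as FOSL2 has 7157 bases of exon against 1820 for JUNB.

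Other bZIP proteins that pair with AP-1 or small MAF proteins were read from a list. Of 11 listed genes 10 were tested, and 1 was called, against 27.0% of all genes, with a median log2 fold change of -0.18. That gene was MAFK, a small MAF protein and the paralog of MAFF. MAFK (chromosome 7, 1530714 to 1543043, plus strand) was at 436, 507, 519 and 294 CPM in the parental and 1664, 1689, 1267 and 1276 CPM in the knockout group. The groups were far apart, with a log2 fold change of 1.75 (SE 0.178, 95% interval 1.36 to 2.14, edgeR adjusted p = 3.61e-05), or 3.36-fold higher. Leaving out any 1 tumour gave 1.59 to 1.84. Its exons share 809 bases with TMEM184A on the other strand, and TMEM184A had a log2 fold change of -0.03 (adjusted p = 0.907). Per kb of exon, MAFK was at 98.5 ± 23.1 in parental and 331 ± 52.5 in knockout tumours, and the other small MAF gene, MAFG, at 18.8 ± 1.81 and 20.4 ± 2.18 (SD over 4 tumours per group). MAFG (log2 fold change 0.12, adjusted p = 0.400) and the JUN partner ATF7 (-0.13, adjusted p = 0.392) were not called. BATF2, the paralog of BATF, had a log2 fold change of -1.09 (adjusted p = 0.0539), and BATF3 one of -0.26 (adjusted p = 0.720).

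Kinases and promoter-bound factors that act upstream of FOS and JUN mostly did not pass the test. Of 20 listed genes all were tested, 3 fell and 0 rose, against 14.1% and 13.0% of all genes, with a median log2 fold change of -0.07. MAPK10, the JNK isoform best known from neurons, was at 1.81, 1.86, 2.099 and 1.87 CPM in the parental and 0.280, 0.585, 0.560 and 0.280 CPM in the knockout group. These groups did not overlap, and edgeR gave a log2 fold change of -2.15 from 164 and 36 counts (SE 0.289, adjusted p = 0.000249). MAPK10 passed the filter on low counts through its parental libraries. CREB1, which binds the cAMP response element, differed by -0.49 in log2 units (SE 0.111, adjusted p = 0.00713). MAP2K1, the ERK-activating kinase MEK1, fell by 0.36 (SE 0.101, adjusted p = 0.0223), a call lost without parental tumour 1 (adjusted p = 0.0524) and without parental tumour 2 and knockout tumour 4 (fell by 0.26, adjusted p = 0.0530). MAP2K2, which encodes MEK2, was abundant and was not called (-0.02, adjusted p = 0.887). SRF, which binds the CArG box, had a log2 fold change of 0.0058 (adjusted p = 0.971).

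Other immediate early genes, which are commonly induced alongside FOS, were called about as often as all genes. Of 32 listed genes 30 were tested, 5 rose, 4 fell and 21 were not called, against 27.0% of all genes called, with a median log2 fold change of 0.15. The risers were EGR3, IER3 and the 3 orphan nuclear receptor genes NR4A1, NR4A2 and NR4A3. EGR3, at 41 parental and 95 knockout counts, passed the filter on low counts through its knockout libraries. NR4A2 was at 117, 120, 107 and 92.4 CPM in the parental and 171, 169, 164 and 138 CPM in the knockout group, without overlap (log2 fold change 0.56, SE 0.105, edgeR adjusted p = 0.00232). KLF10, a TGF-beta-induced repressor, fell by 0.76 in log2 units (SE 0.0965, adjusted p = 0.000167) and BTG2, an antiproliferative gene, by 1.01 (SE 0.131, adjusted p = 0.000202). HES1, a Notch target, fell by 0.96 (SE 0.132, adjusted p = 0.000300) and CCN2, a YAP and TGF-beta target, by 0.95 (SE 0.185, adjusted p = 0.00293). MCL1 (0.43, adjusted p = 0.0536) and RHOB (0.29, adjusted p = 0.265), the most abundant genes of the list among those not called, had groups that overlapped. MCL1 became a call without knockout tumour 4 (0.56, edgeR adjusted p = 0.00725) and in 5 of the 10 alternatives other than leaving out 1 tumour, DESeq2 among them (0.43, adjusted p = 0.0289). The RHOB value rested on knockout tumour 1, and without it was 0.049 (edgeR adjusted p = 0.797). EGR1, which shares serum response with FOS, had a log2 fold change of -0.48 (adjusted p = 0.317).

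Textbook AP-1 target genes changed in both directions, with more higher than lower in knockout tumours. All 31 listed genes were tested, 15 rose and 6 fell, or 67.7% called against 27.0% of all genes, 48.4% higher against 13.0% and 19.4% lower against 14.1%. Their median log2 fold change was 0.51, against 0.00345 over all tested genes. The list was chosen with earlier results of these data known, so its share is a description and carries no test. The difference in share between the targets and the AP-1 members was not tested. Many of these genes also answer to other factors, among them NF-kB and NRF2.

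The 5 called targets with the smallest p were secreted or membrane-bound signals, all higher in knockout tumours. AREG, which encodes the EGFR ligand amphiregulin, was at 10.3, 13.5, 6.25 and 8.33 CPM in the parental and 42.8, 33.6, 35.8 and 24.9 CPM in the knockout group (log2 fold change 1.84, SE 0.225, edgeR adjusted p = 0.000127). EREG, which encodes the related ligand epiregulin, was at 22.7, 19.2, 9.60 and 13.9 CPM in the parental and 59.1, 57.5, 53.2 and 30.7 CPM in the knockout group (1.62, SE 0.263, adjusted p = 0.000919). For both ligands knockout tumour 4 was the lowest of its group and still above every parental tumour. LIF, a cytokine of the IL-6 family, was at 50.2, 35.9, 84.4 and 43.2 CPM in the parental and 153, 203, 142 and 152 CPM in the knockout group (1.60, SE 0.232, adjusted p = 0.000406). IL6 was at 4.92, 3.56, 5.49 and 4.72 CPM in the parental and 11.1, 10.8, 10.7 and 10.8 CPM in the knockout group (1.21, SE 0.145, adjusted p = 0.000114). SPP1, which encodes osteopontin, was at 773, 553, 679 and 916 CPM in the parental and 1291, 1536, 1530 and 1406 CPM in the knockout group (0.98, SE 0.140, adjusted p = 0.000386). Groups did not overlap for any of these 5 genes, which were picked for their small p. The same held for 15 of the 31 listed targets and 29.3% of all tested genes. Parental tumour 2, with the most leukocyte markers, had the lowest IL6, LIF and SPP1 of all 8 tumours and the highest AREG of the parental group. Parental tumour 3, next in leukocyte markers, had the highest IL6 and LIF of the parental group. Fibroblast markers (6 genes) summed to 179 to 607 CPM in the parental and 343 to 603 CPM in the knockout group, most of it COL1A1. LUM, the lumican gene of the same list, was apart, at 0.104, 0.488, 0.268 and 0.638 CPM in the parental and 10.1, 13.4, 10.7 and 15.5 CPM in the knockout group (log2 fold change 5.00, edgeR adjusted p = 1.98e-06). LUM had 33 counts over the parental libraries and passed the filter on low counts through its knockout libraries. The other 3 tested fibroblast markers, COL1A1, COL1A2 and COL3A1, were not called, and DCN and PDGFRB did not pass the filter. The part of leukocytes or fibroblasts in the differences of the target genes was not tested.

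The extremes of the target list were matrix metalloproteinase genes on chromosome 11, named after their values were seen. MMP3, which encodes stromelysin 1, had 12 counts summed over the parental and 121 over the knockout libraries (log2 fold change 3.30, SE 0.614, edgeR adjusted p = 0.00220). MMP3 passed the filter on low counts through its knockout libraries, and its fold change rests on few parental counts. The collagenase gene MMP13 had 374 and 78 counts (-2.25, SE 0.462, adjusted p = 0.00394). PLAU, which encodes urokinase, had a log2 fold change of 0.84 (adjusted p = 0.00308) and was named in the same way. CCND1, which encodes cyclin D1, was not called, at 332 ± 31.6 CPM in the parental and 333 ± 69.6 CPM in the knockout group (SD over 4 tumours per group; adjusted p = 0.984). VEGFA had a log2 fold change of 0.52 (adjusted p = 0.1095). It became a call without knockout tumour 4 (0.69, edgeR adjusted p = 0.0245), without parental tumour 2 and knockout tumour 4 (0.82, 0.00952), with no filter on low counts (0.51, 0.0362) and with the replicate block (0.49, 0.0298).

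**Figure D4:**
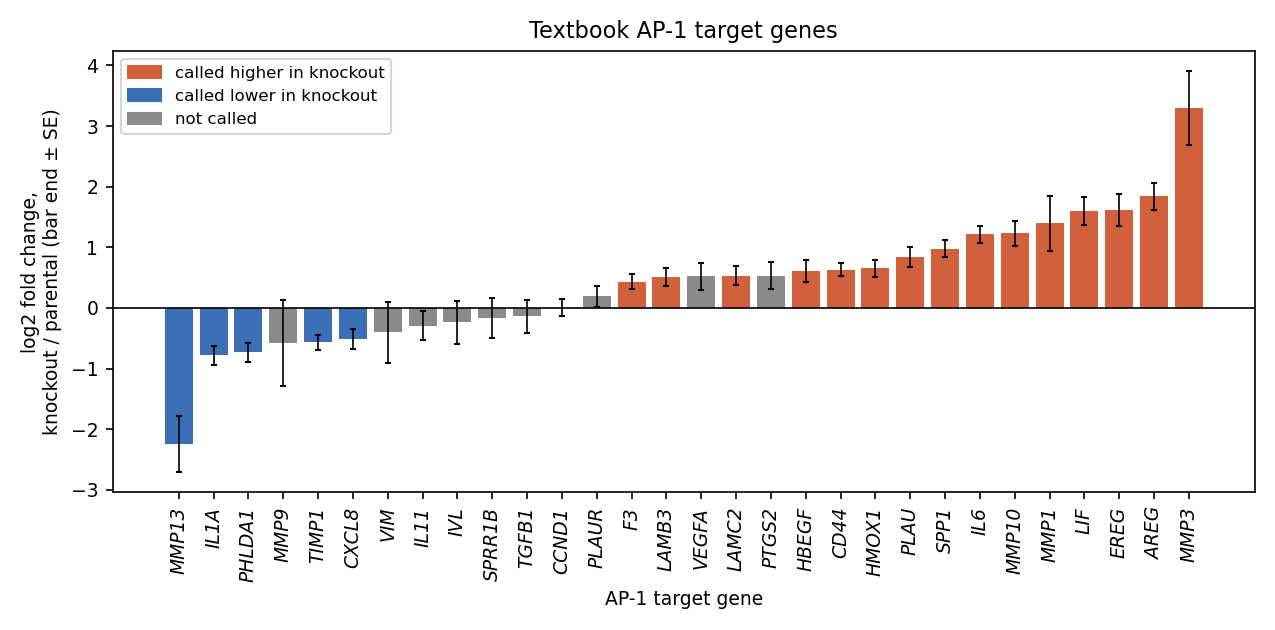
Log2 fold change of knockout over parental tumours (bars, with SE) for 30 of the 31 listed AP-1 target genes, orange where called higher, blue where called lower and grey where not called by edgeR. The called genes drawn lie on both sides, 15 higher and 5 lower, from MMP13 at -2.25 to MMP3 at 3.30. MMP3 had 12 counts over the parental libraries. The list was chosen with earlier results of these data known.

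Genes with a pattern most like 3 members were found after subtracting each group's mean of log2 CPM, over the 8 tumours and 13053 genes, and are given as a description. For FOS these were LRRC41 (r = 0.99), SUSD6 (0.98) and SH3PXD2B (0.97). FOSL1 was matched most closely by CHCHD10 (0.99), HNRNPA1 (0.99) and RABEPK (0.98). BATF had as its closest matches FAM86C1 (0.98), IFITM3 (0.95) and SHLD1 (0.95). The BATF pattern in the knockout group rests on 3, 8, 9 and 10 counts. Its largest deviation from a group mean, -0.86 in log2 units, was that of knockout tumour 1, the library with 3 counts. These 9 were the closest of many genes, so their r values carry no test. No AP-1 member and no other gene of the 4 lists was among these 9 genes.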

How the data were processed

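The deposited files hold raw read counts per gene symbol, 1 file per tumour with no replicates pooled. Per the submitters' processing notes, TopHat2 2.1.1, HTSeq 0.11.0 and hg38 were used; the annotation, counting options, strandedness and any removal of mouse reads are not given in the sources used here. The 5 summary lines of each file were left out. Of the reads tallied per library, those lines included, 79.1% to 85.2% were assigned to a gene. Unaligned reads were not part of this total.

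Knockout was compared with parental over all genes in edgeR 4.0.16 (R 4.3.3): filterByExpr with a minimum count of 10 and total of 15, TMM scaling, the quasi-likelihood F-test, and Benjamini-Hochberg adjustment. The fit was tested on simulated data. SE and 95% intervals came from the F statistic. CPM uses TMM-scaled library sizes, and values per kb use GENCODE 29 union exons matched by symbol. Groups came from titles and genotypes. Single values were compared by exact permutation in scipy 1.17.1, whose smallest p for 4 against 4 tumours is 0.0286.

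The members and the 4 gene lists were chosen with earlier results of these data known. Genes named were all members, SMARCA4, from each list up to 5 called genes with the smallest p (all, where 8 or fewer were called) and up to 2 abundant uncalled ones, and the closest patterns for FOS and the most changed members. Other genes were named after their values were seen, and some listed genes are not reported here one by one. Alternatives were DESeq2 1.42.0, limma-voom (limma 3.58.1), 3 other scalings, 2 other filters, the replicate block and leaving out each tumour.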

Additional observations from a re-analysis of the deposited data

Results flagged for a closer look

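Within each group of 4, the highest or lowest tumour was compared with the other 3 for the members, the named genes and the marker sums, and 6 values stood apart of 82 groups of values. Chance gives about 5% of such groups.

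JUND was at 94.6 CPM in parental tumour 3, against 78.4 to 80.5 CPM in the other parental tumours. ATF3 was at 5.04 CPM in knockout tumour 4, against 10.2 to 10.6 CPM in the others. MAP2K1 was at 89.0 CPM in the same tumour, against 112 to 117 CPM. Summed endothelial markers were at 15.4 CPM in knockout tumour 2, against 8.87 to 9.24 CPM. Summed skeletal muscle markers were at 32.0 CPM in parental tumour 2, against 0.134 to 5.57 CPM, and at 14.4 CPM in knockout tumour 4, against 0.0975 to 0.467 CPM. What set these tumours apart was not tested.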

How the results depend on the processing

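BATF, MAFK and SMARCA4 kept their direction and call in every alternative run, BATF between -3.01 and -2.58. Leaving out 1 tumour gave 1 to 2 called members, 1 to 2 called bZIP partners, and log2 fold changes of -0.022 to 0.28 for FOS, -0.21 to 0.12 for FOSB, 0.40 to 0.59 for FOSL1, -0.051 to 0.20 for FOSL2, -0.20 to 0.067 for JUN, 0.097 to 0.29 for JUNB, 0.22 to 0.31 for JUND, -0.11 to 0.18 for ATF3, -0.34 to 0.030 for MAFF, -0.062 to 0.010 for MAP2K2 and -0.089 to 0.14 for CCND1. JUND became a call with upper-quartile scaling (0.28), DESeq2 (0.24) and a minimum CPM of 1 (0.26). Upper-quartile scaling turned FOSB to 0.014, JUN to 0.0080, ATF3 to 0.0067 and MAP2K2 to 0.018. CCND1 turned to -0.0019 with relative log expression, -0.0037 without mitochondrial genes, -0.016 with no filter, -0.015 with limma-voom, and -0.0020 with DESeq2. The bZIP list had 2 calls with upper-quartile scaling, no filter, a minimum CPM of 1 or limma-voom, and 3 with DESeq2. Not dividing by length gave shares of 23.0% for JUNB, 44.1% for FOSL2 and 7.0% for JUND. The cause of these shifts was not tested. Depth limits BATF in knockout tumours, with 30 counts in all.

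Leaving out parental tumours 2 and 3, chosen after the data were seen, gave 0.24 for FOSL1, 0.31 for JUND (a call), 0.035 for JUN, 0.23 for MAFF, -0.043 for CCND1, and, none of them a call, 0.41 for FOS, 0.38 for JUNB and 0.25 for FOSL2. Leaving out parental tumour 2 and knockout tumour 4, chosen likewise, gave 1 called member, 2 called bZIP partners, and 0.34 for FOSL1, 0.030 for FOSB, 0.11 for JUN, 0.24 for ATF3, 0.19 for MAFF, 0.25 for FOS, 0.38 for JUNB and 0.33 for FOSL2.

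With the replicate number as a block, 3871 genes changed against 4385, 2 bZIP partners were called, CCND1 was at -0.014 and VEGFA became a call (0.49). It changed no other call among the members and the genes named by the rule. Same-numbered tumours share a number only: their deviations from the group means correlated at -0.04, -0.02, -0.19 and 0.09, and knockout tumour 4 alone correlated best with its own number.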
